A study of Arabis alpina with 19 samples.

Results

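The annual zone of the lateral stem of Arabis alpina was sampled at 2 positions at 30 weeks, and the transcripts of these internodes were set against each other. The libraries were chosen by their labels alone: 4 of a short internode of the annual zone (IV_AZ_si) and 3 of an internode close to the formed inflorescence (IV_AZ_if), 7 of the 19 libraries in the series. All plants carried the pep1-1 (perpetual flowering 1-1) mutation, and no wild type was included. They grew in long days, and every replicate held whole internodes of 12 plants, taken from lateral stems at the 1st and the 2nd node of the main axis. The series' design text gives 3 replicates per stage, while IV_AZ_si has 4 libraries. The other 12 libraries are of the first internode of the perennial zone: I_PZ was taken at an age of 4 weeks, II_PZ at 5, III_PZ at 7 and IV_PZ at 30, each with 3 libraries.

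Arabis alpina is a perennial relative of Arabidopsis, and PEP1 is its counterpart of the flowering repressor FLC. Without PEP1 function the plant flowers without winter cold and goes on flowering. Its lateral stems have a lower perennial zone, which persists, and an upper annual zone, which ends in the inflorescence and dies after seed set. In stems, primary growth elongates internodes from dividing and expanding cells, and secondary growth thickens them through the cambium, which makes wood and secondary phloem. The series concerns secondary growth, nutrient storage and cytokinin in the perennial zone, and the annual internodes stand beside it as non-perennial stem. The files pair the transcript targets of the quantification with no gene name, Arabidopsis locus or sequence, so targets are given by identifier and no role is assigned to them. Marker genes of stem tissues could not be matched, and the labelled tissues were therefore not checked against markers.

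The 7 libraries held between 22343780 and 27999020 estimated counts, and between 23685 and 24632 targets had a count. IV_AZ_si replicate 2 lay farther from IV_AZ_if than its replicates did. The share of the pool that differed between 2 libraries was computed from the summed absolute differences in TPM (the length-scaled abundance unit of kallisto), so that 0% means identical pools. Its mean to the IV_AZ_if libraries was 24.6% for IV_AZ_si replicate 2, against 21.54%, 21.8% and 19.9% for IV_AZ_si replicates 1, 3 and 4. In IV_AZ_si replicate 2, 22 targets with a group mean of at least 5 TPM were at least 4-fold above every replicate, against 10 to 14 in the other IV_AZ_si libraries. The IV_AZ_if libraries, each set against fewer replicates, had 51, 56 and 59 such targets, so this count does not single out IV_AZ_si replicate 2. Its 22 targets summed to 2340 TPM in it and to 200.3 to 313 TPM in its replicates. Of the 22, 8 were most abundant in IV_AZ_si as a group, 7 in IV_PZ and 4 in III_PZ, counts given without the share over all targets. The IV_AZ_si mean includes replicate 2, by whose levels the 22 were picked, which favours the count of 8. Calls, lists and most named targets are given with and without this library.

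The pools of the internodes differed by more than replicates did. Between the groups, the 12 pairs of libraries differed by 19.2% to 25.3% of the TPM, with a mean of 21.96%. Pairs within IV_AZ_si differed by 7.43% to 10.9% and pairs within IV_AZ_if by 7.21% to 9.47%, so the ranges did not overlap. The mean between groups was 21.1% without IV_AZ_si replicate 2. With all 7 libraries it was 21.48% for targets of at least 300 bases alone and 20.4% on estimated counts per library total. Targets under 300 bases were 8.91% of the targets tested. All targets under 300 bases, tested or not, took 27.7% to 29.1% of the TPM in IV_AZ_si and 25.4% to 26.5% in IV_AZ_if. Of the counts they took 1.25% to 1.31% in IV_AZ_si and 1.12% to 1.16% in IV_AZ_if. Their effective lengths, by which kallisto divides, were between 2.76 and 98.0 bases.

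Nearly as many targets were higher as lower in the short internode, and the differences of at least 2-fold were more often lower levels, an order that turned round when the size factors were set from TPM. In edgeR's quasi-likelihood test with Benjamini-Hochberg adjustment over 23528 targets, 11442 (48.6%) were called at an adjusted p under 0.05: 5830 (24.8%) were higher and 5612 (23.9%) lower in IV_AZ_si than in IV_AZ_if. At least 2-fold, 1557 (6.62%) were higher and 2179 (9.26%) lower. At least 8-fold, 265 (1.13%) were higher and 577 (2.45%) lower. For 6075 targets (25.8%) every IV_AZ_si library lay above every IV_AZ_if library in TMM-scaled counts (CPM), and for 5672 (24.1%) every one lay below, 11747 (49.9%) in all. Because these are whole internodes, fewer cells of a type and less RNA per cell cannot be told apart.

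Leaving out IV_AZ_si replicate 2 gave 10413 calls among 23458 targets (44.4%), with 5246 (22.4%) higher and 5167 (22%) lower, and 1347 (5.74%) and 2051 (8.74%) of these were at least 2-fold. Of the 5830 targets higher with all libraries, 5085 (87.2%) were also higher without it, and of the 5612 lower, 5060 (90.2%). No target called in one direction with it was called in the other without it. Libraries did not overlap for 12543 targets (53.5%), 6590 (28.1%) higher and 5953 (25.4%) lower. At least 8-fold, 174 targets (0.742%) were higher without it, against 265 with it, and 549 (2.34%) lower, against 577 with it. Among the 1557 targets at least 2-fold higher, IV_AZ_si replicate 2 was the highest of its group in 782 (50.2%), and IV_AZ_si replicate 4 in 178 (11.4%). Among the 2179 at least 2-fold lower, IV_AZ_si replicate 2 was the lowest in 942 (43.2%) and IV_AZ_si replicate 4 in 222 (10.2%). Both sets were called with IV_AZ_si replicate 2 in the fit, which favours targets where it is extreme. No share over all targets stands beside these counts.

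**Figure D1:**
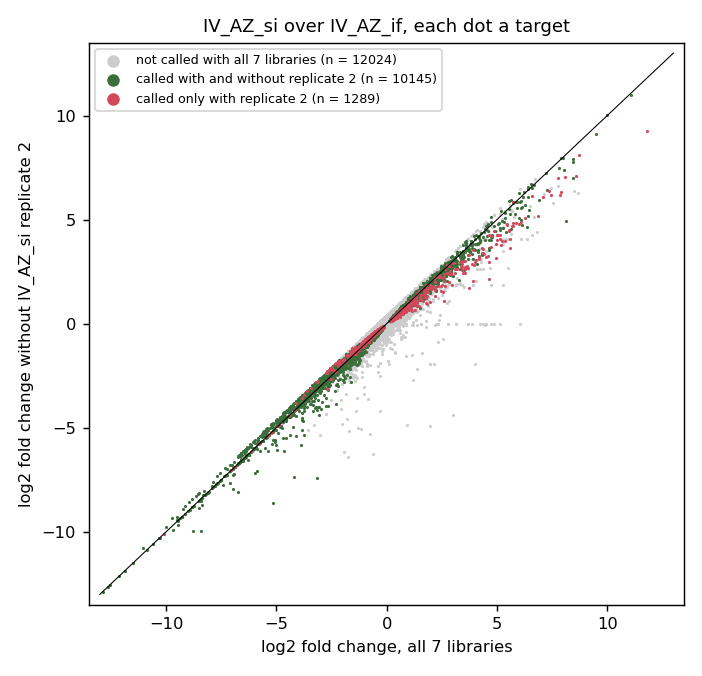
Log2 fold change of IV_AZ_si over IV_AZ_if with all 7 annual-zone libraries (horizontal) and without IV_AZ_si replicate 2 (vertical), each dot a target and the line marking equality. The 10145 targets called both times lie along the line, and 1289 were called only with replicate 2. Of the 11434 called with it and tested both times, 7943 lie farther from 0 with it than without it. The choice by a call that used it favours this, and the median loss of absolute log2 fold change without it was 0.026.

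The balance of directions depended on the scale and, over all calls, on which libraries were fitted. In the 7 annual-zone libraries alone, with TMM scaling, 4889 targets were higher and 5437 lower in IV_AZ_si. When edgeR's size factors were set from TPM, 7813 targets were higher and 4369 lower in IV_AZ_si, and 2061 and 1844 of them at least 2-fold. With RLE scaling, 5345 were higher and 5951 lower. The median log2 fold change of all tested targets was 0.02 with RLE, and with size factors from TPM it was 0.19, against 0.05 with TMM scaling. Limma-trend on log2(TPM + 1) called 7856 targets higher and 4314 lower, and on log2(TPM + 0.1) 7792 higher and 4175 lower. The targets called higher with TMM scaling took 31.0% ± 1.7 of the TPM in IV_AZ_si (SD, n = 4) and 16.9% ± 0.46 in IV_AZ_if (SD, n = 3). Those called lower took 25.98% ± 1.4 in IV_AZ_si (SD, n = 4) and 45.1% ± 0.82 in IV_AZ_if (SD, n = 3). For the calls made without IV_AZ_si replicate 2, the higher targets took 28.4% ± 0.90 in IV_AZ_si and 15.8% ± 0.53 in IV_AZ_if (SD, n = 3 each), and the lower ones 24.5% ± 0.73 in IV_AZ_si and 42.7% ± 0.92 in IV_AZ_if. These sets were chosen by their levels in the same libraries. The directions of these gaps were therefore nearly fixed in advance and add no support.

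Calls differed with abundance. Among the 1772 targets with a mean of at least 100 TPM over the 7 libraries, 22.6% were higher and 38.8% lower in IV_AZ_si. Among the 7823 targets of 1 to 10 TPM, 25.5% were higher and 18.6% lower. In the class of 10 to 100 TPM, with 11160 targets, the shares were 27.7% higher and 27.9% lower, and under 1 TPM, with 2773 targets, 12.2% and 12.6%. Without IV_AZ_si replicate 2, the class of at least 100 TPM had 19.5% higher and 37.8% lower, and that of 1 to 10 TPM had 23.1% and 16.7%.

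To describe the targets by something other than this contrast, 4 lists were taken from the perennial zone, whose libraries are in neither annual group. They hold the targets that rose or fell at least 2-fold between 5 and 7 weeks, and between 7 and 30 weeks, at an adjusted p under 0.05 in an edgeR fit without annual-zone libraries. These were 2824 that rose (12.5% of the 22586 tested there) and 2917 that fell (12.9%) between 5 and 7 weeks. Between 7 and 30 weeks, 1638 rose (7.25%) and 4001 fell (17.7%).

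Targets that the perennial zone gained between 5 and 7 weeks were more often higher than lower in the short internode. Of the 2823 tested, 1417 (50.2%) were higher and 167 (5.92%) lower in IV_AZ_si than in IV_AZ_if, against 24.8% and 23.9% of all targets. Their median log2 fold change was 0.84, with quartiles of 0.23 and 1.63, against 0.05 for all targets. It was 0.81 with targets that had no count in one group set to the bound that 3 counts allow. With replicate 2 of IV_AZ_si left out, 1231 (43.6%) were higher and 173 (6.13%) lower, with a median of 0.74. The list, 2823 of the 23528 targets tested, held 907 (58.3%) of the 1557 targets that were at least 2-fold higher in IV_AZ_si.

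Targets that the perennial zone lost between 5 and 7 weeks were mostly lower in the short internode. Of the 2917, 2005 (68.7%) were lower and 98 (3.36%) higher in IV_AZ_si, with a median log2 fold change of -0.87 and quartiles of -1.68 and -0.38. Without IV_AZ_si replicate 2, 1914 (65.6%) were lower and 93 (3.19%) higher, and the median was -0.82. The list, 2917 of the 23528 targets tested, held 1221 (56.0%) of the 2179 targets that were at least 2-fold lower.

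**Figure D2:**
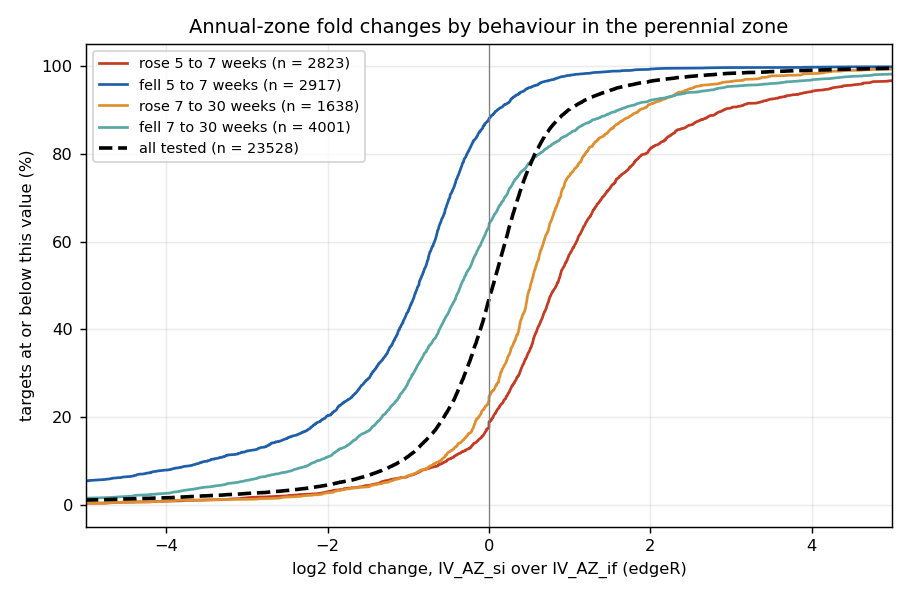
Cumulative share of targets (vertical, %) by log2 fold change of IV_AZ_si over IV_AZ_if (horizontal, shown between -5 and 5), for the 4 perennial-zone lists and for all tested targets (dashed). The targets that rose from 5 to 7 weeks lie to the right of all targets, with a median of 0.84, and those that fell lie to the left, with a median of -0.87.

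The later step of the perennial zone showed the same directions with smaller medians. Of the 1638 targets that rose from 7 to 30 weeks, 780 (47.6%) were higher and 175 (10.7%) lower in IV_AZ_si, with a median log2 fold change of 0.51. Of the 4001 that fell, 572 (14.3%) were higher and 1585 (39.6%) lower, with a median of -0.35. Less IV_AZ_si replicate 2, 721 of the first list were higher and 162 lower, with a median of 0.48, and 490 of the second were higher and 1497 lower, with a median of -0.32. These steps of the perennial zone share the III_PZ libraries, so the lists are not independent of each other.

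Crossing the lists separated targets by their course over the ages. The 330 that rose at both steps had the highest median, 1.35, with 235 (71.2%) higher and 7 (2.12%) lower in IV_AZ_si. The 982 that fell at both steps had the lowest, -1.17, with 21 (2.14%) higher and 695 (70.8%) lower. The 1023 that rose to 7 weeks and then fell were more mixed: 333 (32.6%) were higher and 113 (11.05%) lower, with quartiles of -0.12 and 2.12. Less IV_AZ_si replicate 2, 248 of these were higher and 116 lower, and their median was 0.56 in place of 0.75. The 274 that fell to 7 weeks and then rose went with the earlier step, with 36 (13.1%) higher, 128 (46.7%) lower and a median of -0.43. In none of the lists were 13809 of the 23528 tested targets. Of these 13809, 3535 (25.6%) were higher and 2457 (17.8%) lower, with a median of 0.08. They made up 310 (19.9%) of the targets at least 2-fold higher and 268 (12.3%) of those at least 2-fold lower.

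The same could be read in the pool of each library. Targets that rose from 5 to 7 weeks took 9.84%, 11.5%, 9.996% and 9.04% of the TPM in IV_AZ_si replicates 1 to 4, against 5.12%, 4.99% and 4.67% in IV_AZ_if replicates 1 to 3. Every IV_AZ_si library lay above every IV_AZ_if library, and replicate 2 was the highest. The same targets took 3.67% ± 0.67 in II_PZ and 19.7% ± 1.0 in III_PZ (SD, n = 3 each). Targets that fell from 5 to 7 weeks took 18.5%, 16.5%, 19.04% and 20.6% of the TPM in IV_AZ_si replicates 1 to 4, against 31.6%, 31.4% and 31.9% in IV_AZ_if replicates 1 to 3. The groups again did not overlap. In the perennial zone these targets took 29.0% ± 1.9 in II_PZ and 8.44% ± 0.071 in III_PZ (SD, n = 3 each).

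For the step from 7 to 30 weeks, the list that rose took 10.02%, 11.4%, 10.54% and 9.51% of the TPM in IV_AZ_si, against 7.84%, 8.32% and 8.29% in IV_AZ_if. The list that fell took 15.8%, 14.1%, 14.7% and 16.5% in IV_AZ_si, against 21.7%, 19.8% and 20.3% in IV_AZ_if. Neither overlapped between the groups. In the 30-week perennial zone, IV_PZ, the first of these lists took 23.1% ± 0.41 and the second 4.75% ± 0.12 (SD, n = 3 each). Both lists were chosen by IV_PZ against III_PZ, which puts IV_PZ at their extremes. Its distance from the annual internodes here is therefore no result. The directions did not turn when shares were taken of estimated counts, in which short targets weigh little. Targets that rose from 5 to 7 weeks took 9.19% ± 0.81 of the counts in IV_AZ_si (SD, n = 4) and 5.03% ± 0.22 in IV_AZ_if (SD, n = 3). Those that fell took 18.1% ± 1.9 in IV_AZ_si (SD, n = 4) and 30.4% ± 0.17 in IV_AZ_if (SD, n = 3).

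**Figure D3:**
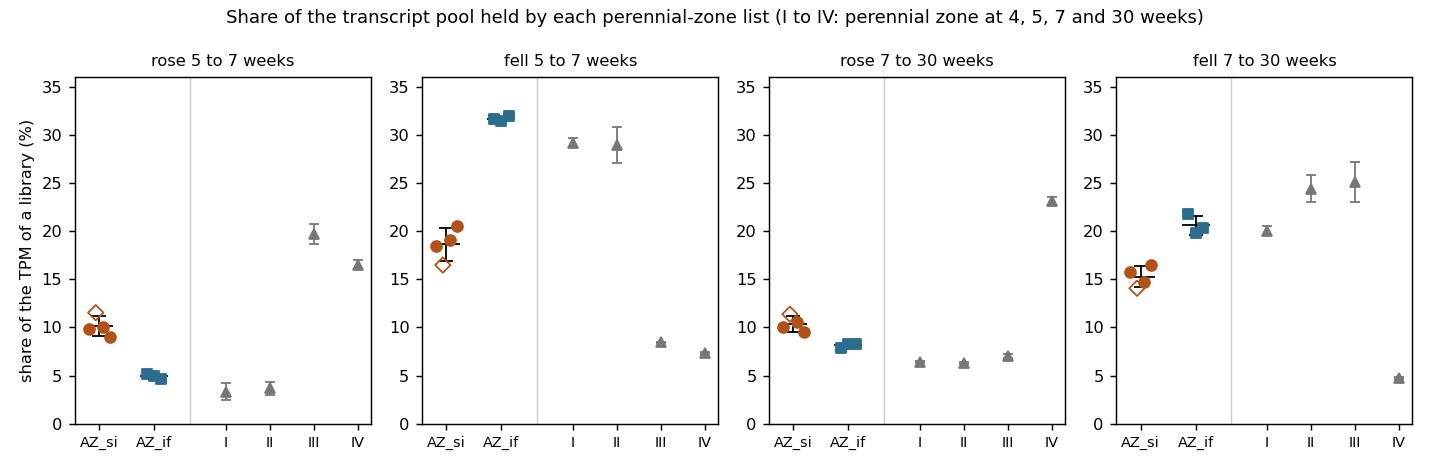
Share of a library's TPM (vertical, %) held by each of the 4 perennial-zone lists in IV_AZ_si (circles, replicate 2 an open diamond), IV_AZ_if (squares) and, as group means, the perennial zone at 4, 5, 7 and 30 weeks (triangles). Bars are 1 SD around the group mean, and no list overlaps between the annual groups.

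IV_AZ_si replicate 2 was the most extreme library of its group in all 4 lists and IV_AZ_si replicate 4 the least. Per library, the median log2 difference in CPM to the IV_AZ_if mean was 0.56, 0.73, 0.58 and 0.46 in IV_AZ_si replicates 1 to 4 for targets that rose from 5 to 7 weeks. For targets that fell it was -0.81, -0.93, -0.76 and -0.67. For all targets it was between 0.02 and 0.04.

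The targets with the largest differences can also be placed by the perennial age at which they were most abundant. Of the 1557 at least 2-fold higher in IV_AZ_si, 684 (43.9%) had their highest perennial mean in III_PZ and 744 (47.8%) in IV_PZ. Of the 2179 at least 2-fold lower, 1248 (57.3%) had it in I_PZ and 598 (27.4%) in II_PZ. Of the 1347 at least 2-fold higher without IV_AZ_si replicate 2, 548 (40.7%) were highest in III_PZ and 672 (49.9%) in IV_PZ, and of the 2051 lower, 1189 (57.97%) in I_PZ and 526 (25.6%) in II_PZ. Over all tested targets, I_PZ was highest in 26.7%, II_PZ in 12.4%, III_PZ in 25.96% and IV_PZ in 34.9%.

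Targets were named only if they were called and their libraries did not overlap between the groups, so non-overlap is no further support for them. Among these, the largest gain in TPM in the short internode was that of Aa_G556440.h1, of 1479 bases. It had 7617, 7997, 8013 and 7469 TPM in IV_AZ_si, against 4264, 4582 and 3786 TPM in IV_AZ_if. The log2 fold change was 0.74 ± 0.09 (SE; edgeR adjusted p = 3.79e-06), and 0.73 without IV_AZ_si replicate 2. It was in none of the perennial-zone lists and averaged between 2102 and 3729 TPM there.

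Aa_G117410.h1 had 7659, 7488, 6406 and 6881 TPM in IV_AZ_si, against 4282, 5117 and 3990 TPM in IV_AZ_if. Its log2 fold change was 0.53 ± 0.13 (SE; edgeR adjusted p = 0.00275), and 0.50 without IV_AZ_si replicate 2. Aa_G300670.h1 had 4297, 4598, 4133 and 4009.8 TPM in IV_AZ_si, against 1597, 1794 and 1284 TPM in IV_AZ_if. It shares reads with other targets and its call was narrow. The log2 fold change was 1.31 ± 0.49 (SE; edgeR adjusted p = 0.034), and it lost its call when any 1 of the 7 annual-zone libraries was left out, with an adjusted p of 0.0573 without IV_AZ_si replicate 2 and between 0.0511 and 0.111 over all 7. The log2 fold change was between 1.18 and 1.42 in these fits. In a fit of the annual-zone libraries alone, less IV_AZ_si replicate 2, it was 1.24 and the call was made (edgeR adjusted p = 7.82e-05). The lowest and highest adjusted p among its 17 alternatives were 3.36e-05 and 0.111. It was among the targets that rose from 5 to 7 weeks, with 367 TPM in II_PZ and 1302 TPM in III_PZ on average.

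The other 3 named for a large gain in TPM were short. Aa_G82150.h1, of 285 bases, had 3551, 3142, 3551 and 3626 TPM in IV_AZ_si, against 1156, 1178 and 1097 TPM in IV_AZ_if, a log2 fold change of 1.46 ± 0.17 (SE; edgeR adjusted p = 1.98e-06). Here IV_AZ_si replicate 2 was the lowest of its group, and the log2 fold change was 1.51 without it. It was among the targets that fell from 7 to 30 weeks in the perennial zone, so it ran against its list. Aa_G234940.h1, of 204 bases, averaged 3203 ± 382 TPM in IV_AZ_si (SD, n = 4) and 939 ± 204 TPM in IV_AZ_if (SD, n = 3). Aa_G14880.h1, of 240 bases, averaged 5199 ± 338 TPM in IV_AZ_si (SD, n = 4) and 3147 ± 25 TPM in IV_AZ_if (SD, n = 3). For targets this short the level in TPM rests on an effective length of 18.2 to 86.0 bases, while the ratio between groups does not.

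The target with the largest loss was also the most abundant of those named. Aa_G253980.h1 had 6885, 7005, 9326 and 10354 TPM in IV_AZ_si, against 18550.5, 23062 and 21121 TPM in IV_AZ_if. Its log2 fold change was -1.46 ± 0.15 (SE; edgeR adjusted p = 4.15e-07), and -1.37 without IV_AZ_si replicate 2. In the perennial zone it averaged 13966 TPM in II_PZ and 1450 TPM in III_PZ, so the level in IV_AZ_si lay between those 2 ages and that in IV_AZ_if above both.

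Aa_G269070.h1 had 1638, 993, 971 and 1441 TPM in IV_AZ_si, against 4462, 4709 and 5189 TPM in IV_AZ_if. Aa_G98170.h1 had 608, 425, 527 and 596 TPM in IV_AZ_si, against 3161, 2605 and 2611 TPM in IV_AZ_if. Their log2 fold changes were -2.07 ± 0.18 and -2.52 ± 0.18 (SE; edgeR adjusted p = 5.74e-08 and 5.45e-09), and -1.97 and -2.41 without IV_AZ_si replicate 2. Both fell at both steps of the perennial zone, to 151 and 6.32 TPM in IV_PZ, so they stayed far more abundant in either annual internode than in the perennial zone of that age.

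Aa_G206880.h1, of 189 bases, showed the steepest of these losses. It had 45.8, 23.8, 32.6 and 33.8 TPM in IV_AZ_si, against 2265, 2675 and 2939 TPM in IV_AZ_if. The log2 fold change was -6.41 ± 0.35 (SE; edgeR adjusted p = 3.32e-10), and -6.27 without IV_AZ_si replicate 2. Its IV_AZ_if level was above every perennial group mean, the highest of which was 1133 TPM in I_PZ. Aa_G463610.h1, of 177 bases, averaged 1948 ± 404 TPM in IV_AZ_si (SD, n = 4) and 4587 ± 177 TPM in IV_AZ_if (SD, n = 3).

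Aa_G56460.h1, of 198 bases, also went against its list. It rose between 7 and 30 weeks in the perennial zone, with 7555 TPM in IV_PZ against 861 TPM in III_PZ, and was lower in the short internode. It had 1909, 1465, 2457 and 1904 TPM in IV_AZ_si, against 6338, 6146 and 5675 TPM in IV_AZ_if. The log2 fold change was -1.79 ± 0.13 (SE; edgeR adjusted p = 9.11e-09), and -1.67 without IV_AZ_si replicate 2.

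**Figure D4:**
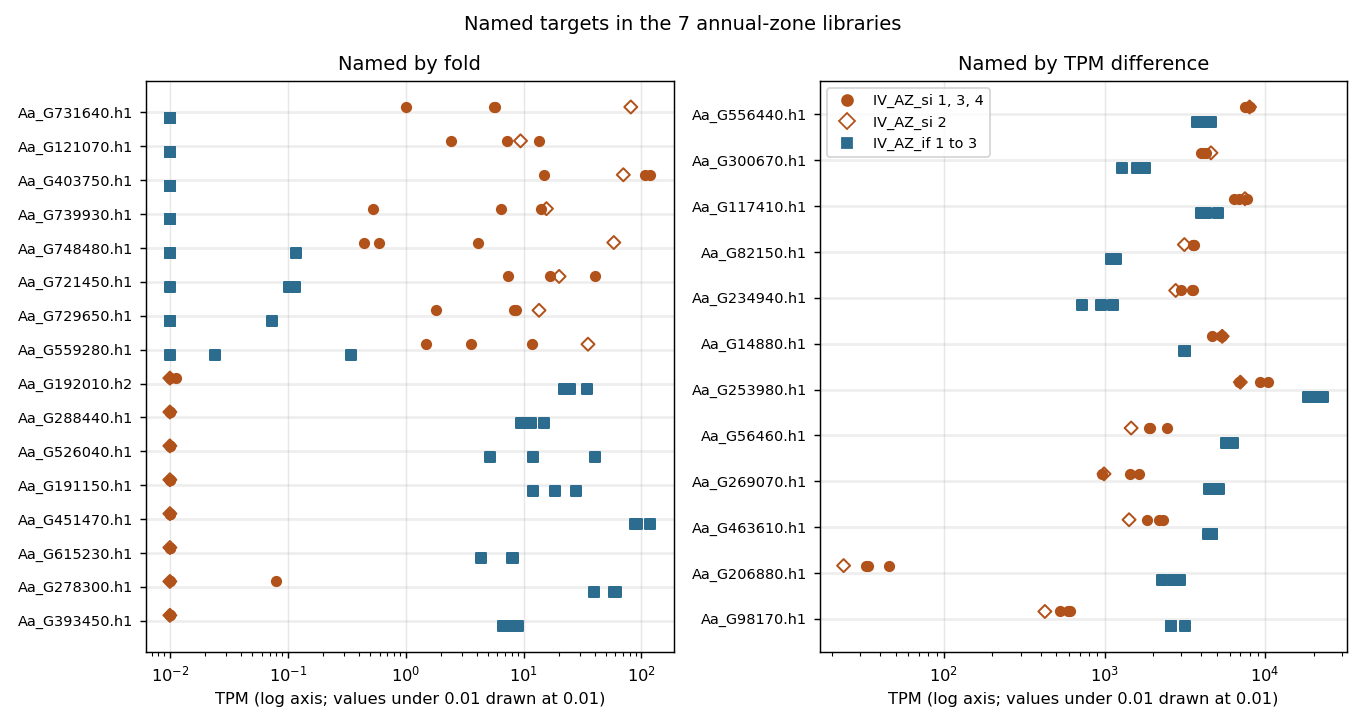
TPM of the 28 named targets (log axis, values under 0.01 drawn at 0.01) in IV_AZ_si (circles, replicate 2 an open diamond) and IV_AZ_if (squares), at left those named by fold and at right those named by TPM difference. The rule for naming required groups that do not overlap, and IV_AZ_si replicate 2 is far above its replicates for Aa_G731640.h1 (81.2 TPM) and Aa_G748480.h1 (58.2 TPM).

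Several other targets ran against the direction of their list and were chosen after their values were seen, as those with the largest TPM difference. Aa_G289990.h1 rose between 5 and 7 weeks, with 79.1 TPM in III_PZ against 3.01 TPM in II_PZ. It had 86.6, 62.0, 86.1 and 100.3 TPM in IV_AZ_si, against 356, 338 and 307 TPM in IV_AZ_if (log2 fold change -2.14 ± 0.40, SE; edgeR adjusted p = 0.00025). Aa_G95980.h1, of 240 bases, fell between 5 and 7 weeks, with 68.3 TPM in III_PZ against 214 TPM in II_PZ, and had 354 TPM in IV_PZ. It had 352, 529, 434 and 346 TPM in IV_AZ_si, against 56.1, 97.8 and 54.2 TPM in IV_AZ_if (log2 fold change 2.43 ± 0.26, SE; edgeR adjusted p = 8.86e-07).

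Some targets were found in only 1 of the internodes at these depths. The 8 named as lower by fold had between 0 and 1 count over the 4 IV_AZ_si libraries. Aa_G451470.h1 had 118, 88.4 and 91.8 TPM in IV_AZ_if and no count in IV_AZ_si. It was at least 635-fold lower in IV_AZ_si, taking 3 counts over the group as the limit of a count of 0 (edgeR adjusted p = 3.97e-07), or 480.4-fold without IV_AZ_si replicate 2. Its highest perennial mean was 4.34 TPM, in II_PZ, so it was more abundant near the inflorescence than in any other group. Aa_G288440.h1 had 9.54, 11.5 and 14.9 TPM in IV_AZ_if but no count in IV_AZ_si. It was at least 1076-fold lower there, or 815-fold without IV_AZ_si replicate 2, and no perennial mean exceeded 0.172 TPM.

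Aa_G278300.h1, Aa_G393450.h1 and Aa_G526040.h1 were abundant in the young perennial zone. Aa_G278300.h1 had 39.9, 58.9 and 60.9 TPM in IV_AZ_if and a single count in IV_AZ_si. It was lower by a ratio of 3232, and the exact Poisson limits at 95%, which cover counting error only, were 580.2 and 127677. It averaged 83.7 TPM in I_PZ, 57.8 TPM in II_PZ and 0.0774 TPM in III_PZ. Aa_G393450.h1 averaged 104 TPM in I_PZ and 70.4 TPM in II_PZ, and it had 6.71, 8.94 and 8.01 TPM in IV_AZ_if. Its level in IV_AZ_si, without a count, was lower by at least 260.3-fold. Aa_G526040.h1 varied widely near the inflorescence, with 5.23, 11.9 and 40.2 TPM in IV_AZ_if and no count in IV_AZ_si, and averaged 132 TPM in I_PZ. Aa_G191150.h1 and Aa_G615230.h1 averaged 19.4 ± 7.9 and 6.83 ± 2.1 TPM in IV_AZ_if (SD, n = 3 each) and had no count in IV_AZ_si. In I_PZ they averaged 5.01 and 16.7 TPM. Aa_G192010.h2, which shares reads, had 21.98, 24.6 and 34.4 TPM in IV_AZ_if and at most 0.0112 TPM in an IV_AZ_si library. Its highest perennial mean was 3.94 TPM, in IV_PZ, and rested on replicate 2 alone (0, 11.8 and 0 TPM). In I_PZ it had 4.08, 4.28 and 3.32 TPM.

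The targets named as higher by fold were less even among the IV_AZ_si libraries. Aa_G721450.h1 had 40.6, 20.0, 16.8 and 7.36 TPM in IV_AZ_si, against 0.103, 0.115 and 0 TPM in IV_AZ_if. Replicate 1 was the highest of the IV_AZ_si libraries. The log2 fold change was 7.91 ± 1.1 (SE; edgeR adjusted p = 1.39e-05), and 7.94 without IV_AZ_si replicate 2. No perennial mean was above 3.14 TPM.

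Aa_G403750.h1, of 240 bases, had 107, 70.2, 117 and 14.9 TPM in IV_AZ_si and no count in IV_AZ_if, at least 117-fold higher. Aa_G121070.h1 had 13.51, 9.42, 7.29 and 2.44 TPM in IV_AZ_si and no count in IV_AZ_if, at least 248-fold higher, or 233-fold without IV_AZ_si replicate 2. Aa_G739930.h1 had 13.9, 15.6, 6.38 and 0.527 TPM in IV_AZ_si and no count in IV_AZ_if, at least 81.8-fold higher, or 61.3-fold without that library. In these 3 targets IV_AZ_si replicate 4 was the lowest of its group. Aa_G729650.h1 had 8.70, 13.53, 1.81 and 8.36 TPM in IV_AZ_si, while the IV_AZ_if libraries held 2 counts. This gives a ratio of 263, with exact Poisson limits of 72.8 and 2171.

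The remaining 3 were highest in IV_AZ_si replicate 2 by a wide margin, and all were abundant in III_PZ or IV_PZ. Aa_G731640.h1, which shares reads, had 5.70, 81.2, 5.57 and 1.00 TPM in IV_AZ_si and no count in IV_AZ_if, at least 409.9-fold higher. The bound was 71.4-fold without IV_AZ_si replicate 2, and the edgeR adjusted p was 0.13, against 0.0307 with it. A fit of the annual-zone libraries alone, less that library, made the call (edgeR adjusted p = 0.00134). Leaving out IV_AZ_if replicate 1, 2 or 3 gave 0.0706, 0.0747 and 0.0717, and the lowest and highest among its 18 alternatives were 1.23e-21, with DESeq2, and 0.13. In IV_PZ it averaged 981 ± 191 TPM (SD, n = 3).

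Aa_G748480.h1 had 0.44, 58.2, 4.13 and 0.596 TPM in IV_AZ_si with 2 counts over the IV_AZ_if libraries. The ratio was 318, with exact Poisson limits of 88.2 and 2630 (edgeR adjusted p = 0.00649), and it was 35.6 when IV_AZ_si replicate 2 was left out (edgeR adjusted p = 0.0389). It averaged 3867 TPM in IV_PZ. The fits of the annual-zone libraries alone, with and without IV_AZ_si replicate 2, gave no value for it. Aa_G559280.h1 had 11.8, 35.2, 3.605 and 1.48 TPM in IV_AZ_si, and averaged 0.122 ± 0.19 TPM in IV_AZ_if (SD, n = 3). Its log2 fold change was 6.41 ± 1.98 with IV_AZ_si replicate 2 and 5.18 ± 2.00 without it (SE; edgeR adjusted p = 0.0128 and 0.0454). It averaged 373 TPM in III_PZ and 71.1 TPM in IV_PZ. In I_PZ these 3 targets were found mainly in replicate 3, with 66.4 TPM of Aa_G731640.h1, 3.91 TPM of Aa_G748480.h1 and 40.9 TPM of Aa_G559280.h1. In an edgeR fit without that library, which is in neither annual group but adds to the estimate of spread, their adjusted p-values were 0.00575, 0.00617 and 0.000313.

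**Figure D5:**
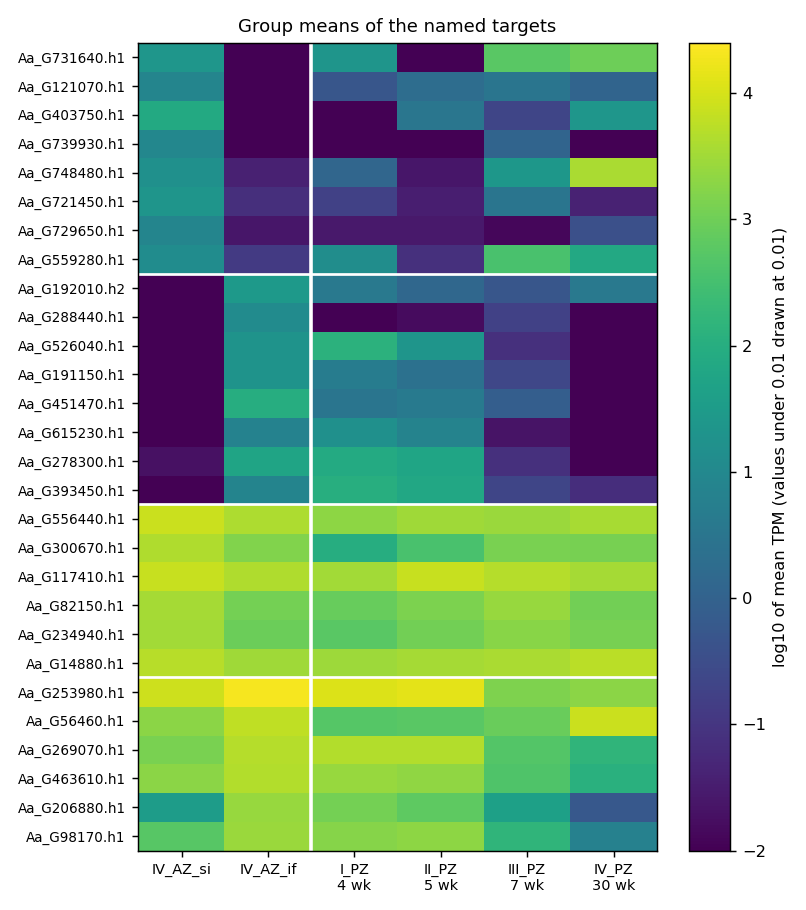
Mean TPM of the 28 named targets (log10 colour scale, values under 0.01 drawn at 0.01) in the annual internodes at left and the perennial zone by age at right. White lines separate targets higher by fold, lower by fold, higher by TPM difference and lower by TPM difference, from top to bottom. Of the last block, Aa_G56460.h1 alone has its highest mean in IV_PZ (7555 TPM).

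Counts of targets found in 1 internode only depended on target length. Averaging 5 TPM or more in IV_AZ_si and having no count in IV_AZ_if there were 57 targets, of which 54 were under 300 bases. The filter on low counts left 8 of the 57 to be tested, and 7 were called. The 57 had a median of 11 counts over the 4 libraries. With at least 5 TPM in IV_AZ_if and no count in IV_AZ_si there were 48, of which 33 were under 300 bases, and 24 of the 25 tested were called. Both sets were picked for a difference between the groups, so their calls were nearly fixed in advance and add no support. Over all targets, 48.6% were called. At 300 bases or more, 3 targets were found in IV_AZ_si alone of the 2 groups and 15 in IV_AZ_if alone. The first were Aa_G121070.h1, Aa_G739930.h1 and Aa_G731640.h1. Without IV_AZ_si replicate 2 there were 66 and 63 targets in all, 2 and 17 of them of 300 bases or more. The 57 became 152 without IV_AZ_if replicate 2 and 97 without IV_AZ_if replicate 3. Of all 48 targets found in IV_AZ_if, 25 had their highest perennial mean in I_PZ and 13 in II_PZ, and 2 had no perennial count. Of the 57 found in IV_AZ_si, 26 had it in IV_PZ and 16 in III_PZ, and 7 had no perennial count. Over all tested targets the shares were 26.7% for I_PZ, 12.4% for II_PZ, 25.96% for III_PZ and 34.9% for IV_PZ. The 57 are too few and too low in counts to read as a difference from these shares.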

How the data were processed

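Stranded TruSeq mRNA libraries were made from total RNA, per the labels' protocols. The submitters' processing notes name bcl2fastq and kallisto. Not given in the sources used here are their versions, the transcript reference and the build. For each of 34220 targets, the deposited files hold an estimated count and a TPM value, per the file headers. The deposited series table repeats the TPM values of 30158 targets. Estimated counts were rounded and tested with edgeR 4.0.16 in R 4.3.3 (quasi-likelihood test, TMM scaling, default low-count filter with minimum count 10 and minimum total 15, Benjamini-Hochberg adjustment, threshold 0.05), with all 19 libraries in 1 fit and the group as its only term. The perennial-zone lists came from a fit of II_PZ, III_PZ and IV_PZ alone. Bounds and ratios of targets with 0 to 3 counts in a group use TMM-scaled library sizes, and per-library medians use CPM with 0.5 added. Replicates differed by more than sampling noise (chi-square per degree of freedom of at least 11.6), so each library counted as 1 sample.

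The 28 named targets are the 8 highest and 8 lowest by fold (called, at least 5 TPM in the higher group, libraries not overlapping), the 6 largest gains and 6 largest losses in TPM, and the largest TPM difference of each list, which added none. The rules and lists were chosen with earlier results of these data known. Gene and marker lists could not be matched to the identifiers and were not tested. Simulated data for IV_AZ_si against IV_AZ_if had 200 of 23106 targets changed. The fit gave back 74% of the targets changed 2-fold and 96% of those changed 4-fold, with 9 false calls. These rates hold for that setting only, since 48.6% of the targets were called in the real libraries. Recovery with that many changed targets was not tested. The alternatives were RLE and TPM-scale size factors, DESeq2 1.42.0, no filter, the 7 annual-zone libraries alone, a fit less I_PZ replicate 3, a fit with the replicate number as a block, targets without shared reads (all counts within 0.001 of a whole number), targets of the series table, and each library left out. Limma-trend (limma 3.58.1) was also run on the log2 of TPM, with 1 or 0.1 added, where at least 3 libraries reached 1 TPM. Chosen after seeing the data were the limit of 300 bases, lists less II_PZ replicate 3, the annual-zone fit less IV_AZ_si replicate 2, shares of counts, and the abundance classes, TPM shares of calls and highest perennial groups without IV_AZ_si replicate 2.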

Additional observations from a re-analysis of the deposited data

Results flagged for a closer look

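Over the 4 IV_AZ_si libraries, 32 values were examined: the TPM of the 22 named targets that varied there, the 4 list shares and 6 library measures. In 4 of them, each the TPM of a named target, 1 library lay far from its replicates. The rule was set at 5%, but the named targets were chosen by their levels in these same libraries. The values also share libraries, so 5% is not a rate to set these 4 against. For Aa_G731640.h1 the gap to the nearest replicate was 0.941 of the range, with 5.70, 81.2, 5.57 and 1.00 TPM in replicates 1 to 4. For Aa_G748480.h1 it was 0.936, with 0.44, 58.2, 4.13 and 0.596 TPM. Both were highest in replicate 2 and abundant in IV_PZ. For Aa_G82150.h1 it was 0.846, with replicate 2 the lowest (3551, 3142, 3551 and 3626 TPM). For Aa_G278300.h1 it was 1, which rested on a single count in replicate 1.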

How the results depend on the processing

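No fold change of a named target and no list median changed sign, but the order of the counts did. Targets at least 2-fold higher outnumbered those lower with TPM-scale size factors (2061 and 1844) and with limma-trend on log2(TPM + 0.1) (1950 and 1697). Over all calls the lower ones outnumbered the higher with RLE (5345 higher, 5951 lower) and DESeq2 (5497 and 6059). With TMM scaling they also did so in the 7 annual-zone libraries alone (4889 and 5437), without a filter (5215 and 5770) and without shared reads (4235 and 4604). The same held without IV_AZ_si replicate 4 (5216 and 5785), IV_AZ_if replicate 1 (4785 and 5619) or IV_AZ_if replicate 2 (5074 and 5117). Leaving out any other annual-zone library kept the higher ones ahead. Of the 28 named targets, 26 were called under each alternative that gave a value. Aa_G731640.h1 and Aa_G300670.h1 lost their calls in fits of all groups less 1 annual-zone library. Aa_G748480.h1 gave a value in 17 of the 19 alternatives, and none in the fits of the annual-zone libraries alone. Aa_G559280.h1 gave none with DESeq2, and Aa_G739930.h1 none in the annual-zone fit less IV_AZ_si replicate 2. The causes of the changes below were not tested. Targets at least 2-fold lower numbered 1433 with limma-trend on log2(TPM + 1). The median log2 fold changes of the lists that rose and fell from 5 to 7 weeks were 0.98 and -0.73 with TPM-scale size factors, 0.65 and -0.62 with limma-trend on log2(TPM + 1), and 0.44 and -0.46 for lists with no fold minimum. The first was 0.68 in the annual-zone fit less IV_AZ_si replicate 2, and the second -0.72 with limma-trend on log2(TPM + 0.1). Those that rose and fell from 7 to 30 weeks were 0.66 and -0.20 with TPM-scale size factors, 0.64 and -0.21 with limma-trend on log2(TPM + 0.1), and 0.31 for the risen list with no fold minimum. The fallen list had -0.42 in the 7 annual-zone libraries alone and -0.15 with limma-trend on log2(TPM + 1). With no fold minimum, 3600 (56.0%) of the 6429 tested that rose from 5 to 7 weeks were higher and 364 (5.66%) lower. Of the 6414 that fell, 401 (6.25%) were higher and 3842 (59.9%) lower. From 7 to 30 weeks, 2851 (48.9%) of the 5825 that rose were higher and 661 (11.3%) lower. Of the 6780 that fell, 997 (14.7%) were higher and 2946 (43.5%) lower. Over all targets, 24.8% were higher and 23.9% lower. Targets found in IV_AZ_si alone numbered 258 at 1 TPM or more, 152 with at most 3 counts allowed and 3 of at least 300 bases; in IV_AZ_if alone, 159, 97 and 15. Leaving out 1 library gave 64 to 152 in IV_AZ_si and 45 to 67 in IV_AZ_if. Same-numbered libraries did not deviate together (correlations 0.03, 0.07 and 0.01), and a replicate block gave 5416 targets higher and 5413 lower, 1541 and 2225 of them at least 2-fold. Few counts limit the short targets.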
